A study of Mus musculus with 5 samples.

Results

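The collagen chain genes are the genes whose products assemble into the triple helices of the collagen superfamily, and they were chosen here by symbol: every gene whose name is Col, a type number, the letter a and a chain number. 44 of the 19061 genes in the tables met this rule. They fall into 11 fibrillar chains, 6 basement membrane (type IV) chains, 9 FACIT chains (fibril-associated collagens with interrupted triple helices) and 18 chains of other kinds. RNA was sequenced from hearts of C57BL/6 mice carrying MHC-CnATg, a transgene that drives calcineurin in heart muscle cells and is used as a model of cardiac hypertrophy and failure. The treated mice received JIB-04, an inhibitor of Jumonji histone demethylases, at 50 mg/kg, 3 times a week from 4 weeks of age (3 libraries), and the control mice received vehicle (2 libraries), all collected at postnatal day 158. Both groups carry the transgene, and hearts without it are not analysed here, so the values describe JIB-04 against vehicle among transgenic hearts. The labels do not say whether each library is a separate animal, and the name of the transgene is spelled differently in the title of JIB-04 replicate 3. The libraries held 32152168 to 37002846 reads assigned to genes, and heart muscle transcripts were abundant in all of them (Myh6, the cardiac alpha myosin heavy chain, had 26321, 20384 and 19599 CPM in JIB-04 hearts and 23926 and 27882 CPM in vehicle hearts).

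Collagens are the main structural proteins of the cardiac interstitium. Fibrillar collagens, chiefly types I and III with small amounts of type V, form the fibres between muscle bundles and are made mostly by fibroblasts. Type IV collagen forms the sheet-like network of the basement membrane around muscle cells and vessels, FACIT chains decorate fibril surfaces, and type VI builds beaded microfilaments. Chains are hydroxylated and folded in the endoplasmic reticulum, exported, trimmed of their propeptides and crosslinked by lysyl oxidases. In cardiac hypertrophy and failure, raised collagen deposition is a familiar part of fibrosis.

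One feature that the naming rule did not use is a match to the seed of the miR-29 family, microRNAs known for repressing collagen mRNAs. The mature sequences, from RefSeq (GRCm38.p6), are shown because they share one seed, given in capitals (bases 2 to 8).
mmu-miR-29a-3p: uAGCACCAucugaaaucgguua
mmu-miR-29b-3p: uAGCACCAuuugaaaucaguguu
mmu-miR-29c-3p: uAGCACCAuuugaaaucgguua
The letters complementary to that seed, TGGTGCT, were searched on the sense strand of the 3′ untranslated region (3′ UTR) of the annotated transcript with the longest coding sequence. They occurred in 23 of the 44 collagen genes, 11 of them with 2 or more matches. The share was 14.01% over the 13119 tested genes with an annotated coding transcript. Col6a3, Col18a1 and Col11a2 are among the 44, but their transcript has a 3′ UTR of 0 bases, so they could hold no match. The median 3′ UTR length was 920.5 bases for the collagen genes and 964 bases for the tested genes. By class, 9 of 11 fibrillar, 6 of 6 type IV, 3 of 9 FACIT and 5 of 18 other chains held a match. For 5 of the collagen genes described most fully below, the first match in the 3′ UTR is shown 5′ to 3′ with the match in capitals. Col4a2 held 2 matches and Col4a5 held 3, and the other 3 genes shown held 1 each.
Col1a1 (GRCm38, chr11:94952523-94952545, plus strand): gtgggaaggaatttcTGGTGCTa
Col3a1 (GRCm38, chr1:45348967-45348989, plus strand): ttcaaaatgtctcaaTGGTGCTa
Col4a1 (GRCm38, chr8:11199761-11199783, minus strand): gccaccgtcacaacaTGGTGCTa
Col4a2 (GRCm38, chr8:11448344-11448366, plus strand): gtgggaaggccacgtTGGTGCTt
Col4a5 (GRCm38, chrX:141688238-141688260, plus strand): cactgctcccaccaaTGGTGCTa
The Col1a1 match lies past the end of the gene as the tables give it, so the tables' gene model is the shorter one there. A match is a description of the letters, and the microRNAs themselves were not measured.

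Levels were compared between genes as CPM (the deposited normalised read count) divided by the length of the coding sequence in kilobases. Reads from untranslated regions can add to CPM but not to this length. Orders of genes and ratios per kilobase are therefore approximate. By this measure the collagen transcript with the highest mean over all 5 libraries was Col3a1, at 184 ± 46.7 in JIB-04 hearts and 121 ± 27.4 in vehicle hearts (SD, n = 3 and 2). Col4a1 followed at 164 ± 64.9 in JIB-04 hearts and 132 ± 10.9 in vehicle hearts, and Col4a2 at 157 ± 49.2 in JIB-04 hearts and 134 ± 7.28 in vehicle hearts. In vehicle hearts alone, the means of Col4a1 and Col4a2 were above that of Col3a1. These 3 ranges overlapped, so their order is not resolved. Col1a2 and Col1a1 came next, at 99.2 ± 24.7 in JIB-04 hearts and 75.0 ± 8.19 in vehicle hearts for Col1a2 and 85.9 ± 20.2 in JIB-04 hearts and 63.8 ± 10.8 in vehicle hearts for Col1a1. The 2 chains of type I collagen, which combine as a pair of alpha 1 chains and a single alpha 2 chain, gave a Col1a1 to Col1a2 ratio per kilobase of 0.865, 0.846 and 0.891 in JIB-04 hearts and 0.884 and 0.811 in vehicle hearts. At the other end, Col10a1, the growth plate collagen, had 0 reads in every library, which allows up to 3 reads, or 0.0804 to 0.0977 CPM by library (counting error only).

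**Figure D1:**
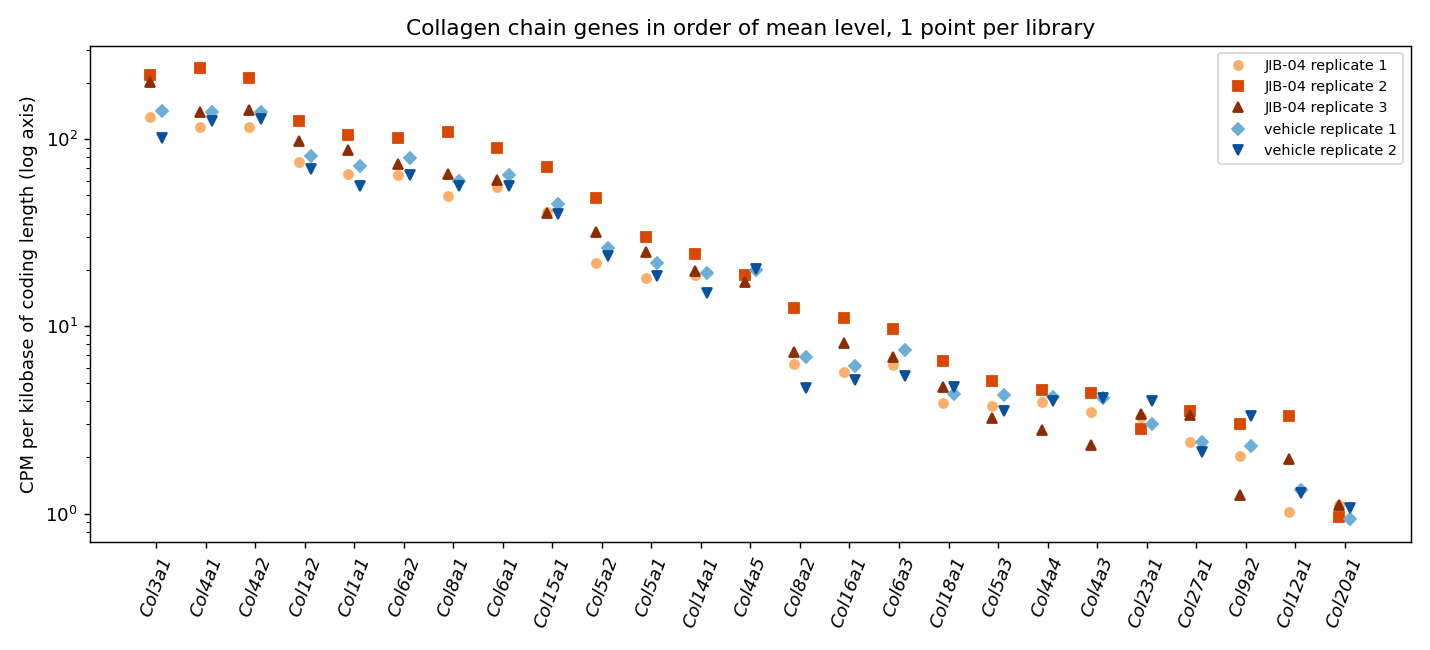
CPM per kilobase of coding length (log axis) for the 25 collagen chain genes with the highest mean level, 1 point per library, with JIB-04 libraries to the left of vehicle libraries at each gene. Col3a1, Col4a1 and Col4a2 lead and overlap one another, and Col20a1, the last gene shown, averages 1.06 in JIB-04 hearts and 1.005 in vehicle hearts.

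No collagen chain gene passed the test between JIB-04 and vehicle hearts. 35 of the 44 had enough reads to enter the fit (at least 10 reads, scaled to library size, in 2 libraries and 15 in all). None of the 35 was called by limma at an adjusted p under 0.05 in either direction, where the background over all 14414 tested genes was also 0 (percent called 0 higher and 0 lower). The smallest adjusted p among them by limma was 0.761. At an unadjusted p under 0.05, 2 collagen genes were higher (Col3a1 and Col27a1, against 3.93% of all tested genes) and 0 were lower (against 2.51%). edgeR and limma-voom also called 0 collagen genes in either direction, and DESeq2 called 0 against a background of 0.481% higher and 0.113% lower, with a smallest adjusted p among collagens of 0.348. The count at an unadjusted p under 0.05 depended on the filter and the tool. With no filter on low values, limma gave 0 higher and 2 lower collagens (1145 of 18795 genes in both directions together). limma-voom gave 1 higher and 0 lower (872 of 14414), DESeq2 5 higher and 0 lower (805 of 14414) and edgeR 2 higher and 0 lower (946 of 14414). The count also depended on single libraries, for collagens as for all genes. With JIB-04 replicate 1 left out, limma gave 11 higher and 2 lower collagens, with a smallest adjusted p of 0.0696, while the shares of all genes were 9.72% higher and 9% lower. No collagen passed adjustment in that fit, in which 0.187% of all genes were called higher and 0.0139% lower. With JIB-04 replicate 2 left out it gave 0 higher and 3 lower collagens (3.32% and 2.07% of all genes). The count was 0 in both directions with JIB-04 replicate 3 left out (2.55% and 1.81% of all genes) and with vehicle replicate 2 left out (1.11% and 0.805%), and it stayed at 2 higher and 0 lower with vehicle replicate 1 left out (2.63% and 1.3%).

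Most collagen genes nevertheless had a positive log2 fold change, and one library carried much of that. The log2 fold change (JIB-04 over vehicle, on log2 of CPM plus 1) was positive for 27 of 35, where 46.9% of all tested genes were positive. Its median was 0.13 over the collagens and -0.0092 over all genes. The background depended on the scaling. With values scaled to the library total alone, 27 of 35 collagens and 9091 of 14414 genes were positive. The medians were then 0.16 over the collagens and 0.038 over all genes. JIB-04 replicate 2 was the highest of the 5 libraries for 25 of the 35 collagens (24.2% of all genes) and for 21 of the 22 collagens whose group mean reached 10 CPM. Without it, 16 of 35 were positive (47.3% of all genes) and the median was -0.034.

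Library by library, the 3 JIB-04 hearts did not lie on one side of the vehicle hearts. The summed value of all 44 collagen genes was 3611, 6298 and 4556 CPM in JIB-04 hearts and 4133 and 3542 CPM in vehicle hearts. JIB-04 replicate 1 thus lay between the vehicle hearts, and replicates 2 and 3 above both. Counting genes, replicate 1 was above both vehicle hearts for 5 of 35 collagens and below both for 15 (36.8% and 34.6% of all genes). Replicate 2 was above both for 25 and below both for 6 (37.5% and 43.9% of all genes), and replicate 3 was above both for 15 and below both for 9 (34.3% and 41.7%). All 3 JIB-04 hearts lay above both vehicle hearts for 1 collagen, Col27a1 (10.7% of all genes), and below both for 2, Col4a5 and Col28a1 (12% of all genes).

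**Figure D2:**
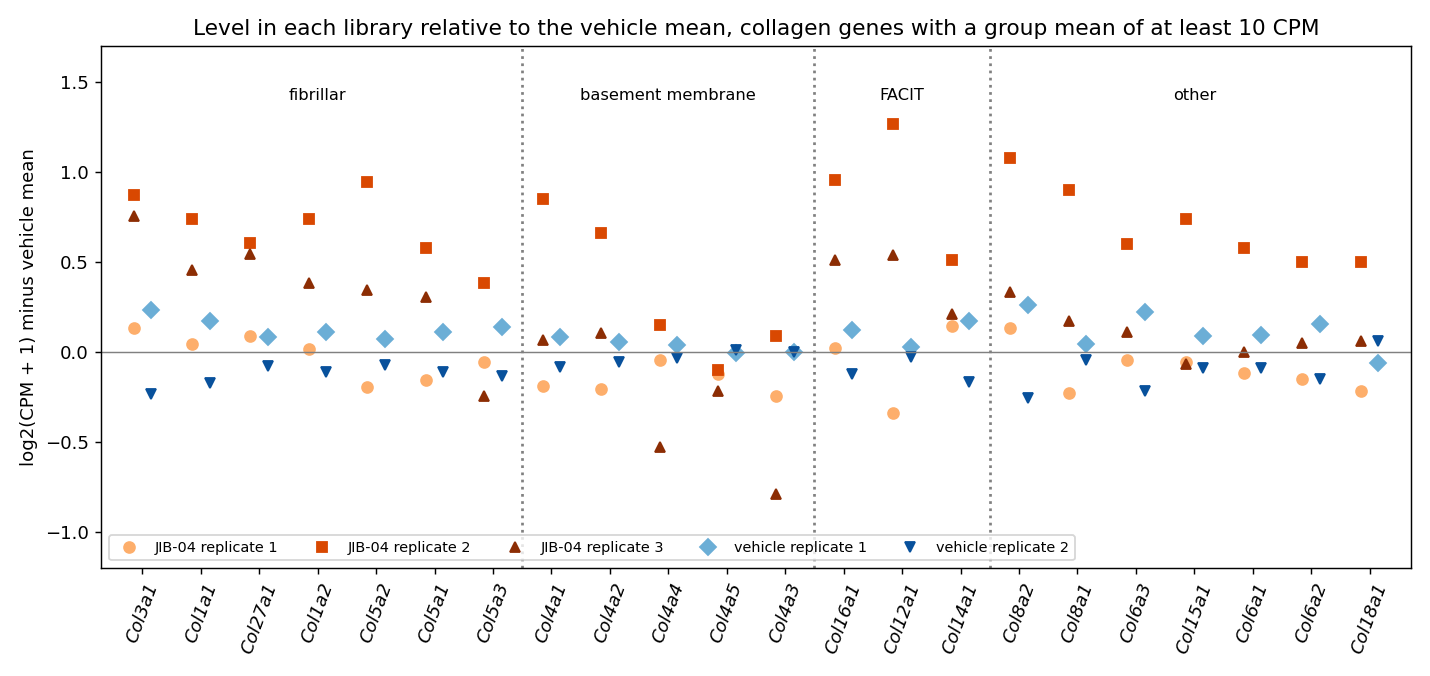
Level of the 22 collagen chain genes with a group mean of at least 10 CPM in each library, as log2(CPM + 1) minus the vehicle mean, grouped by class. JIB-04 replicate 2 (squares) is the highest library for 21 of the 22 genes, and JIB-04 replicate 1 (circles) lies below at least 1 vehicle heart for most.

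The classes differed in where their medians lay. The median log2 fold change was 0.36 for the 9 fibrillar chains tested (8 positive), -0.048 for the 6 type IV chains (3 positive), 0.062 for the 7 FACIT chains (6 positive) and 0.11 for the 13 others (10 positive). The 22 genes with a group mean of at least 10 CPM had a median of 0.24 (19 positive), and the 13 tested genes below that level a median of 0.044 (8 positive). Leaving out JIB-04 replicate 2 moved the class medians to 0.075 for fibrillar chains (7 of 9 positive), -0.12 for type IV chains (0 of 6), 0.12 for FACIT chains (5 of 7) and -0.051 for the others (4 of 13). The type IV median was 0.059 (4 of 6 positive) on leaving out JIB-04 replicate 3 and -0.13 (2 of 6) on leaving out vehicle replicate 1, so its direction was not settled. The difference between classes was not tested, since the chains of a class are not replicates. Collagens with a miR-29 seed match had a median log2 fold change of 0.16 (17 of 20 positive) and those without one 0.074 (10 of 15), while without JIB-04 replicate 2 these medians were -0.042 and 0.032. The collagens without a match include Col6a3, Col18a1 and Col11a2, which have no annotated 3′ UTR in the transcript used. Among other tested genes the median was 0.0012 with a match (921 of 1818 positive) and -0.010 without one (5233 of 11266). A link between seed matches and the fold changes was not tested.

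**Figure D3:**
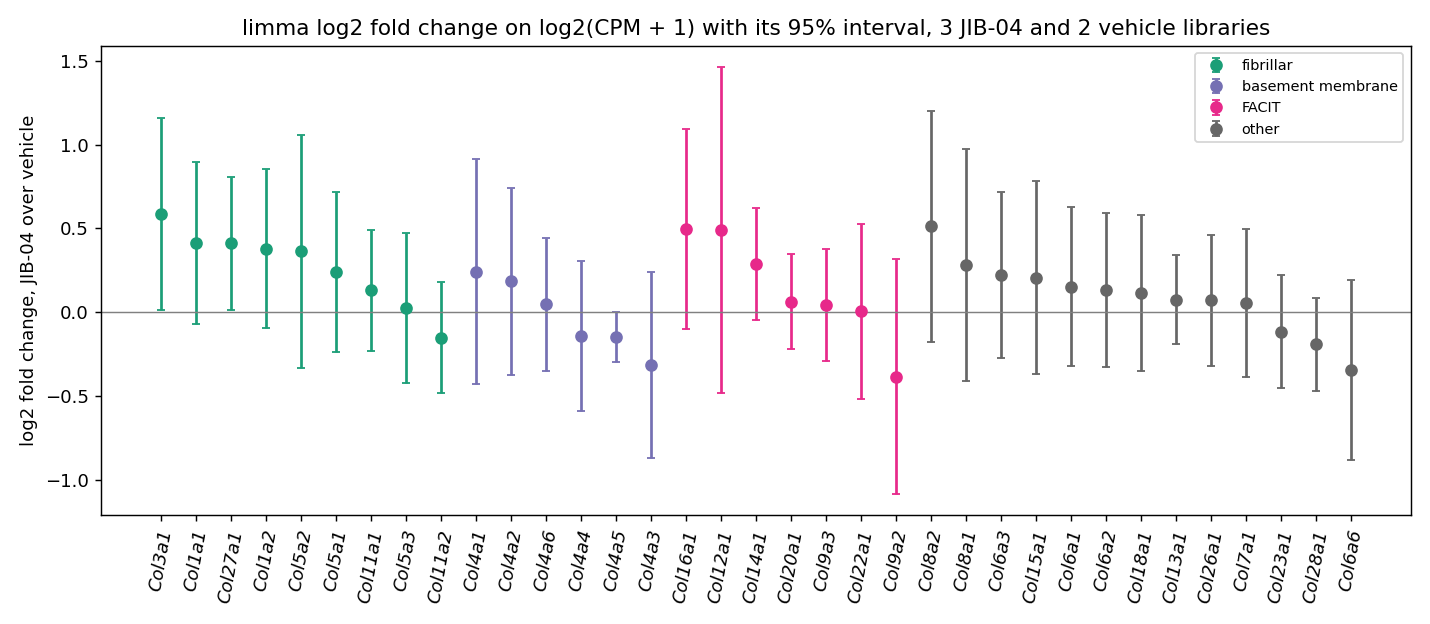
limma log2 fold change of JIB-04 over vehicle with its 95% interval for the 35 tested collagen chain genes, ordered within each class. All but 2 intervals, those of Col3a1 and Col27a1, include 0, and neither of these 2 genes passed adjustment over all 14414 genes.

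Among fibrillar chains, Col3a1 (GRCm38, chromosome 1, 45311537 to 45349706), the single chain of type III collagen, had 575, 962 and 887 CPM in JIB-04 hearts and 617 and 447 CPM in vehicle hearts. JIB-04 replicates 2 and 3 were above both vehicle hearts, and replicate 1 lay between them. The fit gave a log2 fold change of 0.59 (SE 0.24, limma adjusted p = 0.767). It was 0.44 with JIB-04 replicate 2 left out and 0.35 with vehicle replicate 2 left out. With JIB-04 replicate 1 left out it was 0.81, and with vehicle replicate 1 left out 0.82. The Col1a1 gene (chromosome 11, 94936269 to 94951856), which encodes the alpha 1 chain of type I collagen, had 285, 460.3 and 378 CPM in JIB-04 hearts and 311 and 245 CPM in vehicle hearts. Its partner Col1a2 (chromosome 6, 4505696 to 4541543) had 311, 514 and 401 CPM in JIB-04 hearts and 332 and 285 CPM in vehicle hearts. For both type I chains, JIB-04 replicate 1 lay between the vehicle hearts and replicates 2 and 3 above both. Col1a1 gave a log2 fold change of 0.41 (SE 0.20, limma adjusted p = 0.816) and Col1a2 a log2 fold change of 0.38 (SE 0.20, limma adjusted p = 0.821). With JIB-04 replicate 2 left out these were 0.25 for Col1a1 and 0.20 for Col1a2, with vehicle replicate 2 left out Col1a1 had 0.24, and no other library moved either by over 1.5 times. The ratio of Col1a1 to Col3a1 per kilobase, 0.499, 0.482 and 0.430 in JIB-04 hearts and 0.508 and 0.551 in vehicle hearts, was lower in every JIB-04 heart than in both vehicle hearts, a difference an exact permutation test of 3 against 2 libraries cannot call, since its smallest two-sided p is 0.2.

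Type V collagen nucleates fibrils of type I. Col5a1, its alpha 1 chain, had 99.3, 166 and 137 CPM in JIB-04 hearts and 119.8 and 103 CPM in vehicle hearts, and its log2 fold change was 0.24 (SE 0.20). The alpha 2 chain, Col5a2, had 97.8, 217 and 143 CPM in JIB-04 hearts and 118 and 107 CPM in vehicle hearts, with a log2 fold change of 0.36 (SE 0.29). In both, JIB-04 replicate 1 was below both vehicle hearts and replicates 2 and 3 were above both. With JIB-04 replicate 2 left out, the log2 fold change was 0.075 for Col5a1 and 0.073 for Col5a2, and with JIB-04 replicate 1 left out it was 0.44 for Col5a1 and 0.64 for Col5a2. For Col5a1 it was 0.13 with vehicle replicate 2 left out. The alpha 3 chain, Col5a3, had 19.5, 26.8 and 17.0 CPM in JIB-04 hearts and 22.4 and 18.4 CPM in vehicle hearts, so the groups overlapped, with a log2 fold change of 0.027 that turned to -0.15 on leaving out JIB-04 replicate 2 and to -0.11 on leaving out vehicle replicate 2. Limma adjusted p values of the 3 type V chains were 0.859, 0.851 and 0.984.

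Col27a1 (GRCm38, chromosome 4, 63215411 to 63334990), a fibrillar chain best known from cartilage, had 13.32, 19.5 and 18.6 CPM in JIB-04 hearts and 13.28 and 11.8 CPM in vehicle hearts. The groups did not overlap, but JIB-04 replicate 1 and vehicle replicate 1 were nearly equal. The fit gave a log2 fold change of 0.41 (SE 0.17, limma adjusted p = 0.761). The remaining fibrillar chains were scarce: Col11a1 averaged 0.513 CPM in JIB-04 hearts and 0.376 CPM in vehicle hearts, and Col11a2 averaged 3.74 CPM in JIB-04 hearts and 4.25 CPM in vehicle hearts. Both have overlapping groups and encode chains of type XI collagen, a cartilage fibril component. Col24a1 had 3, 2 and 1 reads in JIB-04 hearts and 2 and 4 in vehicle hearts and was not tested.

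One fibrillar gene stood out in a single heart. Col2a1 (GRCm38, chromosome 15, 97975601 to 98004724), the defining collagen of cartilage, had 2, 4 and 330 reads in JIB-04 hearts and 6 and 1 in vehicle hearts, or 9.38 CPM in JIB-04 replicate 3 and at most 0.161 CPM in any other library. Only 1 library reached 10 reads, so it did not enter the fit, and the gene was singled out after its values were seen. Of the other cartilage markers, Chad (chondroadherin) had 0.870, 0.295 and 2.30 CPM in JIB-04 hearts and 0 reads in both vehicle hearts, and Acan (aggrecan) had 0.180, 0.295 and 0.653 CPM in JIB-04 hearts and 0.188 and 0.130 CPM in vehicle hearts. Both were highest in JIB-04 replicate 3. Matn1 had 0.480, 0.295 and 0.0852 CPM in JIB-04 hearts and 0.349 and 0.0977 CPM in vehicle hearts and Ucma had at most 0.0268 CPM in any library. Of the 8 listed markers 4 were tested, and all 4 were positive (median 0.38). Chad and Acan met the read filter only through JIB-04 hearts, which favours a positive sign. The sign count and median of this list are therefore not read as a result. The summed level of the cartilage list was 13.6, 17.6 and 17.3 CPM in JIB-04 hearts and 9.86 and 10.2 CPM in vehicle hearts, most of it from Sox9, which had 11.9, 16.4 and 14.1 CPM in JIB-04 hearts and 9.11 and 9.87 CPM in vehicle hearts. The part of these markers in the Col2a1 value was not tested.

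Type IV collagen genes lie in head-to-head pairs, of which Col4a1 and Col4a2 were the most abundant per kilobase. Col4a1 (GRCm38, chromosome 8, 11198422 to 11312826, minus strand), which with Col4a2 makes the widespread basement membrane trimer, had 581, 1191 and 693 CPM in JIB-04 hearts and 701 and 624 CPM in vehicle hearts. Col4a2 (chromosome 8, 11312828 to 11449287, plus strand) had 591, 1082 and 735 CPM in JIB-04 hearts and 711 and 658 CPM in vehicle hearts. JIB-04 replicate 1 was below both vehicle hearts and replicate 2 above both for each gene, while replicate 3 was between them for Col4a1 and above both for Col4a2. Col4a1 gave a log2 fold change of 0.24 (SE 0.28, limma adjusted p = 0.884) and Col4a2 a log2 fold change of 0.19 (SE 0.23, limma adjusted p = 0.889). Without JIB-04 replicate 2 the log2 fold changes were -0.060 for Col4a1 and -0.053 for Col4a2. Their ratio per kilobase was 1.004, 1.13 and 0.965 in JIB-04 hearts and 1.01 and 0.971 in vehicle hearts, highest in the library in which both were highest.

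The 2 genes are transcribed away from a common start region: in the tables, Col4a1 begins at 11312826 and Col4a2 at 11312828 on chromosome 8. RefSeq places the starts at 11312889 for Col4a1 and 11312805 for Col4a2, so its models overlap by a short stretch. The 300 bases around the RefSeq start of Col4a2 are printed because they hold the starts of both genes as the tables give them. Capitals mark matches to the GC box (GGGCGG), the CCAAT box (CCAAT) and the CTC motif known from this promoter (CCCTCCCC), each searched on both strands.
Col4a2 promoter (RefSeq, GRCm38.p6, chr8:11312555-11312854, plus strand): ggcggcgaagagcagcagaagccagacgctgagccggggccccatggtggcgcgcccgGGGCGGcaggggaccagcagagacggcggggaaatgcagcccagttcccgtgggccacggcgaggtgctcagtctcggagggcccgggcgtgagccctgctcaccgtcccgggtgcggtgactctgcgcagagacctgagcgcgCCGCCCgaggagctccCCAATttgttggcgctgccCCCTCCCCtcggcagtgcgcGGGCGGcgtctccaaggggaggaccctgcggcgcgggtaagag
Of 32851 promoter windows of this length, 35.7% held a GC box, 37.4% a CCAAT box and 10.8% the CTC motif. Of the 35 collagen genes with a window, 22, 13 and 10 held them in any of their windows, whereas the percentages count single windows. The window of Col4a4, which faces Col4a3, held none of these letters.

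The other type IV genes had log2 fold changes near or below 0. Col4a3, of the trimer found in kidney and lung basement membranes, had 17.4, 22.2 and 11.6 CPM in JIB-04 hearts and 20.8 and 20.8 CPM in vehicle hearts, and its neighbour Col4a4 had 20.0, 23.0 and 14.0 CPM in JIB-04 hearts and 21.2 and 20.1 CPM in vehicle hearts. For each gene, JIB-04 replicate 2 was above and replicates 1 and 3 below both vehicle hearts. The log2 fold change was -0.32 for Col4a3 (SE 0.23) and -0.14 for Col4a4 (SE 0.19), and these became -0.080 for Col4a3 and 0.051 for Col4a4 on leaving out JIB-04 replicate 3. Leaving out replicate 2 gave -0.52 for Col4a3 and -0.29 for Col4a4. Their ratio per kilobase, Col4a3 to Col4a4, was 0.876, 0.970 and 0.832 in JIB-04 hearts and 0.987 and 1.04 in vehicle hearts, lower in all JIB-04 hearts. An exact permutation test cannot call this difference either, since its smallest two-sided p is 0.2. Of the 13 ratios computed, only this one and Col1a1 to Col3a1 had groups without overlap. Among all tested genes, the JIB-04 hearts lay above both vehicle hearts for 10.7% and below both for 12%. These ratios are therefore not read as a difference between the groups. Col4a5 (GRCm38, chromosome X, 141475418 to 141689235), an X-linked chain, had 94.0, 95.3 and 87.8 CPM in JIB-04 hearts and 102 and 103 CPM in vehicle hearts. All 3 JIB-04 hearts were below both vehicle hearts, by a small margin. The fit gave a log2 fold change of -0.15 (SE 0.063, limma adjusted p = 0.780). The direction held in all 13 alternatives, some of which cannot differ from this fit or from each other. Col4a6, which lies 1342 bases from Col4a5 on the other strand, had 1.35, 1.98 and 1.53 CPM in JIB-04 hearts and 1.21 and 1.89 CPM in vehicle hearts, with a log2 fold change of 0.047.

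**Figure D4:**
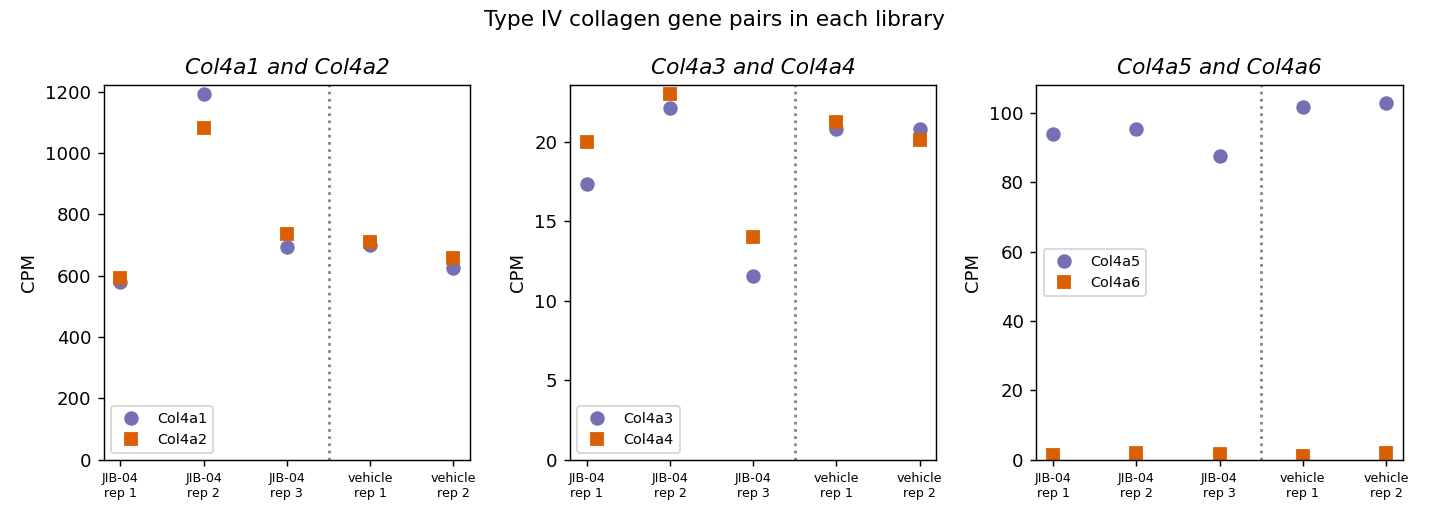
CPM of the 3 head-to-head pairs of type IV collagen genes in each library, on linear axes from 0, with JIB-04 libraries left of the dotted line and vehicle libraries right of it. Col4a1 and Col4a2 peak together in JIB-04 replicate 2, Col4a3 and Col4a4 are lowest in JIB-04 replicate 3, and Col4a5 is lower in each JIB-04 heart than in both vehicle hearts.

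Of the FACIT chains, Col14a1, which binds the surface of type I fibrils, had 102, 131 and 106 CPM in JIB-04 hearts and 103 and 81.7 CPM in vehicle hearts. JIB-04 replicate 1 lay between the vehicle hearts and the other two above both, and the fit gave a log2 fold change of 0.29 (SE 0.14, limma adjusted p = 0.816). Leaving out vehicle replicate 2 brought that to 0.12, leaving out JIB-04 replicate 2 to 0.18 and leaving out vehicle replicate 1 to 0.46. Col16a1, a FACIT chain of fibroblasts and smooth muscle cells, had 27.0, 52.7 and 38.4 CPM in JIB-04 hearts and 29.1 and 24.4 CPM in vehicle hearts, with the same order of libraries and a log2 fold change of 0.50 (SE 0.25, limma adjusted p = 0.816), or 0.27 without JIB-04 replicate 2. Col12a1, associated with fibrils of tissues under mechanical load, had 9.33, 30.4 and 18.0 CPM in JIB-04 hearts and 12.3 and 11.8 CPM in vehicle hearts. Replicate 2 of JIB-04 was far above the rest and replicate 1 below both vehicle hearts, and the fit gave a log2 fold change of 0.49 (SE 0.41, limma adjusted p = 0.860), or 0.10 on leaving out replicate 2 and 0.90 on leaving out replicate 1. The tested FACIT chains below 10 CPM were Col20a1, Col9a2, Col9a3 and Col22a1, with log2 fold changes of 0.062 for Col20a1, -0.39 for Col9a2, 0.044 for Col9a3 and 0.004 for Col22a1. That of Col9a2, one of the cartilage type IX chains, was the lowest of all 35 collagens, from 4.20, 6.24 and 2.59 CPM in JIB-04 hearts and 4.73 and 6.84 CPM in vehicle hearts. Col9a3 shares 230 bases with Tcfl5 on the opposite strand, and the strand setting of the counting is not given in the sources used here. Col9a1 and Col19a1 had too few reads to be tested, with at most 0.0600 CPM of Col9a1 and 0.188 CPM of Col19a1 in any library.

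Among the remaining chains, Col6a2 of type VI collagen had the highest group means per kilobase, 79.6 ± 19.1 in JIB-04 hearts and 71.7 ± 10.8 in vehicle hearts, ahead of Col8a1 at 74.3 ± 30.5 in JIB-04 hearts and 57.9 ± 2.49 in vehicle hearts. Their ranges overlapped in JIB-04 hearts, and Col8a1 was above Col6a2 in JIB-04 replicate 2, so the order is not resolved there. The annotated 3′ UTR, which the coding length leaves out, was 2653 bases for Col8a1 and 451 bases for Col6a2. Col6a1 had 170.2, 276 and 185 CPM in JIB-04 hearts and 197 and 173 CPM in vehicle hearts, and Col6a2 had 199, 313 and 229 CPM in JIB-04 hearts and 246 and 199 CPM in vehicle hearts. Col6a3, the large alpha 3 chain, had 61.0, 95.8 and 67.8 CPM in JIB-04 hearts and 73.4 and 53.8 CPM in vehicle hearts. For all 3, JIB-04 replicate 2 was the highest library, while JIB-04 replicate 1 lay below both vehicle hearts for Col6a1 and between them for Col6a2 and Col6a3. Their log2 fold changes were 0.15 for Col6a1, 0.13 for Col6a2 and 0.22 for Col6a3 (SE 0.20, 0.19 and 0.21). Leaving out JIB-04 replicate 2 gave -0.059, -0.051 and 0.032, and leaving out vehicle replicate 2 gave 0.062, -0.021 and 0.0013. The ratio of Col6a1 to Col6a2 per kilobase was 0.863, 0.888 and 0.814 in JIB-04 hearts and 0.807 and 0.881 in vehicle hearts, with overlapping groups. Of the minor type VI chains, Col6a6 had 1.56, 0.509 and 0.682 CPM in JIB-04 hearts and 1.37 and 1.37 CPM in vehicle hearts and a log2 fold change of -0.34, and Col6a4 and Col6a5, at most 0.0268 CPM of Col6a4 and 0.107 CPM of Col6a5 in any library, were not tested.

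Type VIII collagen is a short chain network collagen of vessel walls and of remodelling matrix. Col8a1 had 110.3, 242 and 146 CPM in JIB-04 hearts and 133 and 125 CPM in vehicle hearts, and Col8a2 had 13.2, 26.2 and 15.2 CPM in JIB-04 hearts and 14.4 and 9.80 CPM in vehicle hearts. JIB-04 replicate 2 was again the highest library by a wide margin and replicate 3 was above both vehicle hearts for each gene. Their log2 fold changes were 0.28 for Col8a1 (SE 0.29) and 0.51 for Col8a2 (SE 0.29), or -0.027 and 0.23 without JIB-04 replicate 2. Leaving out JIB-04 replicate 1 gave 0.54 for Col8a1, and Col8a2 had 0.26 on leaving out vehicle replicate 2 and 0.77 on leaving out vehicle replicate 1. The multiplexin Col15a1, a collagen of muscle and capillary basement membranes, had 167, 289.7 and 165 CPM in JIB-04 hearts and 184 and 163 CPM in vehicle hearts. The related Col18a1, whose C-terminal fragment is endostatin, had 20.6, 34.6 and 25.2 CPM in JIB-04 hearts and 23.1 and 25.3 CPM in vehicle hearts. Neither pair of groups separated, and the log2 fold changes were 0.21 for Col15a1 and 0.11 for Col18a1, or -0.060 and -0.081 without JIB-04 replicate 2. By limma the smallest adjusted p of these type VI, VIII, XV and XVIII genes was 0.821, for Col8a2.

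Col13a1 and Col23a1, transmembrane collagens, averaged 1.37 ± 0.0640 CPM in JIB-04 hearts and 1.26 ± 0.163 CPM in vehicle hearts for Col13a1 and 5.05 ± 0.460 CPM in JIB-04 hearts and 5.60 ± 1.11 CPM in vehicle hearts for Col23a1 (SD, n = 3 and 2). Col7a1, the anchoring fibril collagen, averaged 1.98 ± 0.627 CPM in JIB-04 hearts and 1.84 ± 0.165 CPM in vehicle hearts, and Col26a1 averaged 0.365 ± 0.229 CPM in JIB-04 hearts and 0.289 ± 0.0859 CPM in vehicle hearts. In all 4 the groups overlapped. Col28a1 had 1.41, 1.18 and 1.36 CPM in JIB-04 hearts and 1.505 and 1.79 CPM in vehicle hearts, with all JIB-04 hearts below both vehicle hearts and a log2 fold change of -0.19 (SE 0.12, limma adjusted p = 0.821). Col17a1 and Col25a1 were not tested and had at most 0.161 and 0.376 CPM in any library. Col10a1 also lies opposite Nt5dc1, and 83 bases of Col7a1 hold Mir711 on the same strand.

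No enzyme that modifies or folds collagen chains passed the test. Of 20 tested, 0 passed limma in either direction (percent called over all genes 0), 14 were positive and the median log2 fold change was 0.095. Serpinh1, the collagen chaperone HSP47, had 374, 498 and 439.7 CPM in JIB-04 hearts and 404 and 337 CPM in vehicle hearts, with a log2 fold change of 0.23. The prolyl 4-hydroxylase subunits P4ha1 and P4ha2 had log2 fold changes of 0.032 for P4ha1 and -0.12 for P4ha2, and the lysyl hydroxylase Plod2 had -0.12. The smallest p values of the list belonged to Fkbp10, a collagen-folding isomerase, the endoplasmic reticulum channel gene Tmem38b and the prolyl 3-hydroxylase Lepre1, with log2 fold changes of 0.19 for Fkbp10, -0.19 for Tmem38b and 0.21 for Lepre1. Of 16 export and propeptide processing genes tested, 7 were positive, with a median of -0.016. Adamts14, a procollagen N-proteinase, averaged 0.943 ± 0.253 CPM in JIB-04 hearts and 1.80 ± 0.110 CPM in vehicle hearts, with a log2 fold change of -0.54 (SE 0.14, limma adjusted p = 0.577). The coat protein gene Sec24d had a log2 fold change of 0.13 and the export receptor gene Mia3 -0.11, and the C-proteinase Bmp1 and its enhancer Pcolce had 0.049 and 0.18.

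All 5 lysyl oxidases, which crosslink collagen, had a positive log2 fold change, with a median of 0.28, and 0 passed limma. Lox had 17.5, 58.1 and 52.9 CPM in JIB-04 hearts and 25.7 and 22.0 CPM in vehicle hearts, with replicates 2 and 3 above both vehicle hearts, replicate 1 below both and a log2 fold change of 0.65 (SE 0.47, limma adjusted p = 0.836). The log2 fold change was 0.29 for Loxl1 and 0.28 for Loxl4. Without JIB-04 replicate 2, 3 of the 5 were positive and the median was 0.17. The median deviation of the list from the vehicle mean was -0.28, 0.62 and 0.41 in JIB-04 replicates 1, 2 and 3 and 0.11 and -0.11 in vehicle replicates 1 and 2, so JIB-04 replicate 1 was the lowest library and replicate 2 the highest.

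Collagen receptors and degrading enzymes were mixed. Of 10 receptors tested, 7 were positive (median 0.044). Lair1, an inhibitory receptor of leukocytes, averaged 3.78 ± 0.789 CPM in JIB-04 hearts and 1.59 ± 0.596 CPM in vehicle hearts, with a log2 fold change of 0.89 (SE 0.20, limma adjusted p = 0.479), while Mrc2 and Ddr2 had log2 fold changes of 0.32 and 0.19 and the integrin gene Itga10 -0.24. Of 14 degradation genes, 8 were positive (median 0.039). Timp4, an inhibitor of matrix metalloproteinases, averaged 1.60 ± 0.423 CPM in JIB-04 hearts and 4.19 ± 0.838 CPM in vehicle hearts, with a log2 fold change of -1.0 (SE 0.18, limma adjusted p = 0.399). Timp1, another such inhibitor, had 9.81, 41.0 and 46.9 CPM in JIB-04 hearts and 11.4 and 7.001 CPM in vehicle hearts, with replicate 1 between the vehicle hearts and a log2 fold change of 1.49 (SE 0.62, limma adjusted p = 0.770). The membrane-bound metalloproteinase Mmp14 had a log2 fold change of 0.54 and the gelatinase Mmp2 0.043.

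Of 24 collagen binding matrix partners, 18 were positive, with a median of 0.11, or 12 and 0.018 without JIB-04 replicate 2. Lum (lumican), which regulates fibril spacing, averaged 164 ± 4.93 CPM in JIB-04 hearts and 127 ± 5.95 CPM in vehicle hearts (SD, n = 3 and 2). All 3 JIB-04 hearts were above both vehicle hearts, and the fit gave a log2 fold change of 0.37 (SE 0.063, limma adjusted p = 0.399). Thbs2 averaged 20.4 ± 0.717 CPM in JIB-04 hearts and 15.9 ± 0.403 CPM in vehicle hearts, also without overlap, with a log2 fold change of 0.34. Comp, which promotes fibril assembly, had 156, 308 and 245 CPM in JIB-04 hearts and 139.8 and 96.3 CPM in vehicle hearts, with every JIB-04 heart above both vehicle hearts and a log2 fold change of 0.96 (SE 0.29, limma adjusted p = 0.679). Sparc, a collagen chaperone outside the cell, had 555, 1014 and 700.0 CPM in JIB-04 hearts and 677 and 607 CPM in vehicle hearts, and Postn (periostin), which promotes collagen crosslinking, had 189, 519.6 and 300.0 CPM in JIB-04 hearts and 304 and 274 CPM in vehicle hearts. JIB-04 replicate 2 was the highest and replicate 1 the lowest library for both. Their log2 fold changes were 0.19 for Sparc and 0.098 for Postn, and -0.041 and -0.28 without JIB-04 replicate 2.

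Marker lists of the cells that make collagen were read beside these values, since in bulk tissue fewer cells of a type and less RNA per cell cannot be told apart. No gene of any pathway or marker list passed limma. At an unadjusted p under 0.05, limma gave 10 higher genes of 14 on the macrophage list, 4 of 24 matrix partners, 2 of 14 degradation genes and 2 of 4 cartilage markers, and 1 each of the receptors and of the activated fibroblast, epicardial and Schwann cell markers, with 1 lower gene each among export and degradation genes (3.93% and 2.51% of all genes). DESeq2 called 3 macrophage markers, 1 matrix partner and 1 cartilage marker higher and 1 degradation gene lower. Its background over all genes was 0.481% higher and 0.113% lower. Chad and Acan met the read filter only through JIB-04 hearts, so the cartilage counts are not read as a result. Fibroblast markers (9 tested, 7 positive, median log2 fold change 0.11) had a summed level of 2247, 2344 and 2522 CPM in JIB-04 hearts and 2338 and 2272 CPM in vehicle hearts, and Pdgfra and Tcf21, which define cardiac fibroblasts, had log2 fold changes of -0.040 and 0.11. Activated fibroblast markers (14 tested, 12 positive, median 0.17, or 0.0035 without JIB-04 replicate 2) summed to 3525, 4074 and 4369 CPM in JIB-04 hearts and 3925 and 3499 CPM in vehicle hearts. Their median deviation from the vehicle mean was -0.18, 0.61 and 0.31 in JIB-04 replicates 1, 2 and 3 and 0.091 and -0.091 in vehicle replicates 1 and 2. The fibrillar chains had median deviations of -0.055, 0.60 and 0.34 in JIB-04 replicates 1, 2 and 3 and 0.11 and -0.11 in vehicle replicates 1 and 2. JIB-04 replicate 2 was highest and replicate 3 next for both, while replicate 1 was the lowest library for the activated fibroblast markers and lay between the vehicle hearts for the fibrillar chains. Comp, Postn and Lox belong to this list as well as to the lists above, and Tnc and Tgfb2 had log2 fold changes of 0.92 and 0.25. Of the fibroblast list, Scara5 had -0.24, Thy1 0.26 and Pi16 0.21.

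Endothelial markers (10 tested, 5 positive, median 0.023) summed to 881, 1149.6 and 1008 CPM in JIB-04 hearts and 969 and 1014 CPM in vehicle hearts, and Pecam1 had 133, 169.9 and 147 CPM in JIB-04 hearts and 147 and 153 CPM in vehicle hearts. JIB-04 replicate 1 was the lowest and replicate 2 the highest library for this sum, as for Col4a1. The smallest p values of the list belonged to Emcn, Kdr and Tie1, with log2 fold changes of 0.16, 0.093 and -0.092. Mural cell markers had 3 of 9 positive (median -0.063), epicardial and mesothelial markers 4 of 7 (0.079), Schwann cell markers 3 of 7 (-0.034) and cardiomyocyte markers 3 of 12 (-0.13). The summed level of the cardiomyocyte markers ranged over 88139 to 114380.0 CPM in JIB-04 hearts and 102741 to 115874 CPM in vehicle hearts and was lowest in JIB-04 replicate 2, the library with the highest collagen sum. Macrophage markers had 12 of 14 positive and a median of 0.65, and summed to 369, 498 and 580.3 CPM in JIB-04 hearts and 371 and 267 CPM in vehicle hearts. Cx3cr1, a receptor of monocytes and macrophages, averaged 9.61 ± 2.77 CPM in JIB-04 hearts and 3.56 ± 0.331 CPM in vehicle hearts, with a log2 fold change of 1.18 (SE 0.23, limma adjusted p = 0.426). Emr1 and Fcgr1 of the same list had log2 fold changes of 0.94 and 1.04. In the epicardial list, Aldh1a2, which makes retinoic acid, averaged 29.5 ± 12.5 CPM in JIB-04 hearts and 12.2 ± 3.93 CPM in vehicle hearts, with a log2 fold change of 1.16. The other genes named by smallest p had log2 fold changes of 0.15 (Tbx18) and -0.23 (Krt19) among epicardial markers, -0.16 (Rgs5), 0.15 (Cspg4) and -0.18 (Abcc9) among mural markers, 0.32 (S100b), 0.32 (Mbp) and -0.14 (Cdh19) among Schwann cell markers, and -0.18 (Myl3), -0.20 (Pln) and 0.24 (Nppb) among cardiomyocyte markers. The part of these cell types in the collagen values was not tested.

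**Figure D5:**
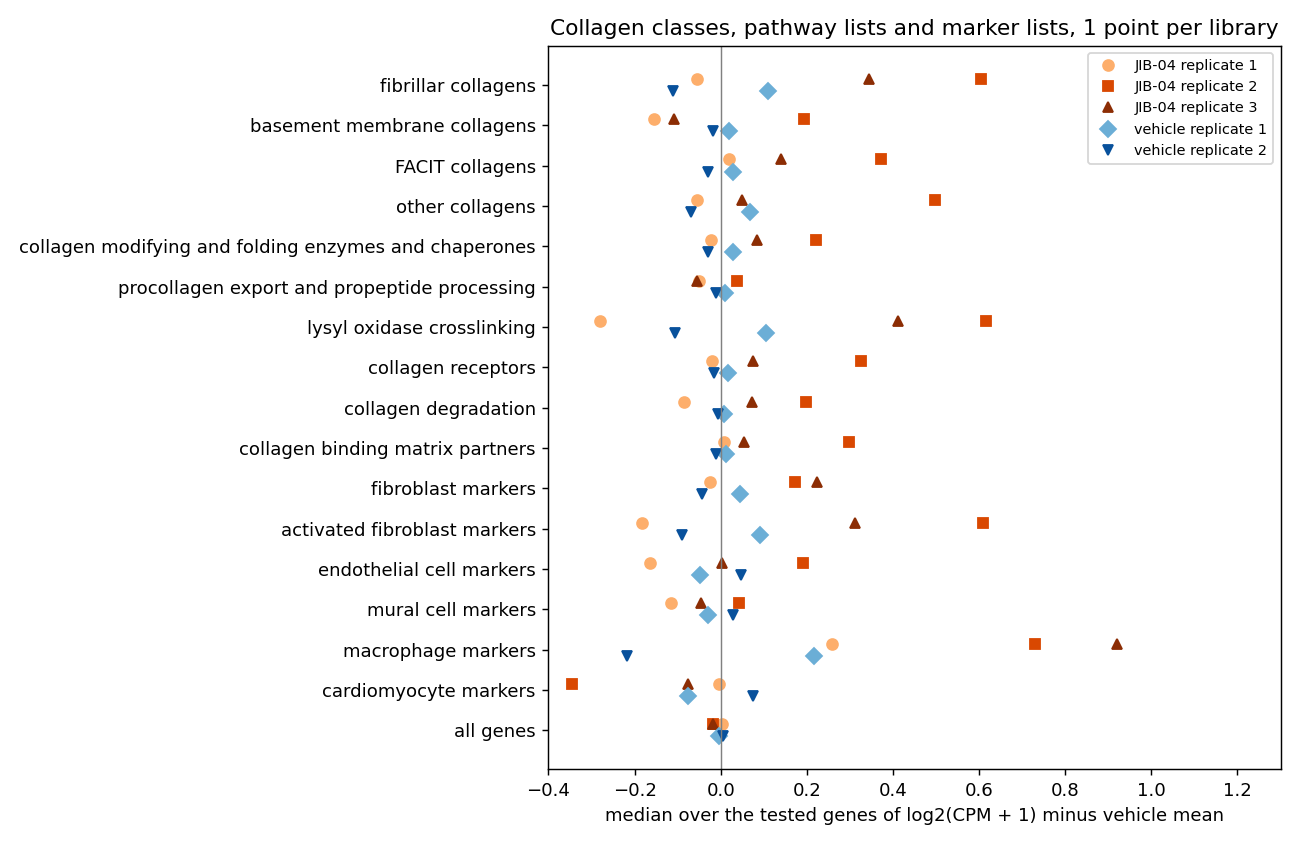
Median over the tested genes of log2(CPM + 1) minus the vehicle mean, 1 point per library, for the 4 collagen classes, 6 pathway lists, 6 marker lists and all genes. JIB-04 replicate 2 (squares) lies highest for each collagen class, each pathway list and the activated fibroblast, endothelial and mural markers. JIB-04 replicate 1 (circles) lies below both vehicle hearts for the type IV chains and for export, lysyl oxidase, receptor and degradation genes. The same holds for the activated fibroblast, endothelial and mural markers. Macrophage markers lie above 0 in all 3 JIB-04 hearts.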

How the data were processed

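Heart RNA of 5 libraries was extracted with Trizol and sequenced as TruSeq Stranded mRNA libraries, per the labels' protocols. Per the submitters' processing notes, FastQC 0.11.2, TopHat2 2.0.12, Picard 1.127, featureCounts and edgeR were used with mm10, with no role or order given. The deposited tables hold 1 normalised signal per gene, headed CPM per the file headers. Its sum differed between libraries, and 100% of values were whole multiples, within 0.01, of the value of 1 read, so read counts could be recovered. 1 row with no gene name was left out.

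Genes with at least 10 reads (15 in total, edgeR's filterByExpr) were tested with limma 3.58.1 in R 4.3.3 on log2(CPM + 1) with a mean-variance trend, 3 JIB-04 against 2 vehicle libraries, adjusted by Benjamini-Hochberg over all 14414 genes, with 3 residual degrees of freedom. The pseudocount understates fold changes of low genes. The recovered counts were also tested with edgeR 4.0.16, limma-voom and DESeq2 1.42.0. The limma step was also run on simulated counts, drawn separately for each gene and library. That run did not cover a shift shared by many genes of 1 library. The labels do not say that libraries are separate animals, so p-values measure only the spread between these libraries, and intervals at this n are wide. The labels give no batch or sex.

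Members and lists were chosen with earlier results of these data known. Collagens with a group mean of at least 10 CPM are given in every library, the rest by range or mean. From each other list come the 3 genes with the smallest limma p and 16 set genes, such as Serpinh1, Lox and Postn. Snorc has no row and was not used. Coding lengths and 3′ UTRs come from GENCODE M21 (GRCm38), overlaps between genes from the deposited gene positions, and promoters and microRNAs from RefSeq. The ratios were 13 in number. Alternatives were another pseudocount, other filters, library totals alone, a replicate block and leaving out each library.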

Additional observations from a re-analysis of the deposited data

How the results depend on the processing

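Of 286 comparisons of the 22 collagens described by library with 13 alternatives, 274 kept their direction. The rest turned on leaving out JIB-04 replicate 2 (Col6a2, Col6a1, Col18a1, Col8a1, Col15a1, Col4a1, Col4a2, Col5a3), vehicle replicate 2 (Col6a2, at -0.021, and Col5a3, at -0.11) or JIB-04 replicate 3 (Col4a4), or under the replicate block (Col4a4, at 0.051). The alternatives were not all separate checks. Changing the filter cannot alter the log2 fold change of a gene that is kept. The replicate block repeats the value without JIB-04 replicate 3, so Col4a4 is counted there again. With 1 library left out in turn, the log2 fold change ranged over -0.051 to 0.29 for Col6a2, -0.059 to 0.29 for Col6a1, -0.081 to 0.28 for Col18a1, -0.027 to 0.54 for Col8a1, -0.060 to 0.34 for Col15a1, -0.060 to 0.46 for Col4a1, -0.053 to 0.38 for Col4a2, -0.15 to 0.16 for Col5a3 and -0.29 to 0.051 for Col4a4. The cause was not tested. The count of collagens with a positive log2 fold change ranged over 16 to 27 when 1 library was left out, and the fibrillar median over 0.075 to 0.56. The FACIT median was 0.21 with a pseudocount of 0.1, 0.29 with a mean value of at least 1 and 0.28 with limma-voom. The count of called collagens was 0 in each alternative. Nothing in the labels says that shared replicate numbers pair the libraries, and the deviations of 2 vehicle libraries mirror each other, so they cannot show it (same-numbered libraries correlated at -0.13). The replicate block, which cannot use JIB-04 replicate 3, gave 26 positive collagens, a median of 0.19, a type IV median of 0.059, -0.080 for Col4a3 and 0 calls. The type IV median, -0.048 with all libraries, ranged over -0.13 to 0.059 with 1 library left out. The filter on low values left out 9 collagens.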
